A study of Homo sapiens with 2 samples.

Results

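Crowded non-Alu clusters are places where ADAR1 was mapped to RNA outside Alu repeats and where another such place lay close by on the same strand. They were taken from 1 deposited list of CLIP-seq clusters (stretches of the genome where crosslinked, sequenced RNA fragments pile up) by a single rule. A cluster that the authors classed as non-Alu was a member when at least 1 other non-Alu cluster on the same chromosome and strand had its nearest edge within 1000 bases. The rule found 543 members among 3582 non-Alu clusters (15.2%, Wilson 95% interval 14 to 16.4%) and among 23782 clusters in all (2.28%). The other 3039 non-Alu clusters are called solitary here. Members closer than that distance were chained, which gave 215 groups. Members were thus chosen by the positions, strands and classes in the list, which are its only measured values. The number of members, the sizes of the groups and the gaps inside them describe the choice and are not findings.

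The study mapped ADAR1 in U87MG cells, a long-established line from a human glioblastoma (a malignant astrocytoma), at passage 6. The labels name no genetic change or drug treatment. Cells at near confluence were irradiated on ice with ultraviolet light of 254 nm, in 2 doses of 800 mJ/cm2, and RNA crosslinked to ADAR1 was recovered with mouse monoclonal antibody to it. There are 2 libraries, named AB1 and AB2 after the antibody. The series' design text speaks of different antibodies, but both libraries carry the same catalogue entry, and the sources at hand do not settle which holds. No library made without the antibody was used here, so no background level could be set beside a cluster. The list does not separate the libraries and holds no read number, so no value below has replicates, its sequencing depth is unknown, and no difference between the libraries could be measured. Wilson intervals of shares cover counting error only, and clusters of 1 transcript are not independent, so no test was run between kinds of cluster.

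ADAR1 is a double-stranded RNA-binding enzyme that deaminates adenosine to inosine, a base that ribosomes and sequencers read as guanosine. Its best known substrates are Alu repeats, primate retrotransposon copies that pair with a nearby inverted copy in the same transcript. RNA outside Alu repeats can also form the paired stretches that ADAR1 binds, and in glioma cells editing of such transcripts is studied because editing by the ADAR family is altered in these tumours.

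Gene symbols are given for some groups as background. They come from general knowledge of the hg19 gene map and not from the list or from an hg19 table, and no count of clusters, group or gap rests on them. For each of the 26 symbols used, GENCODE release 29 put the gene on the same chromosome and strand as its groups, 47 groups with 161 members in all. GENCODE 29 describes a later genome build, so only its chromosomes, strands and exon lengths were used and none of its positions. Exon lengths set beside a group therefore compare sizes and do not place a cluster in an exon. Each is the length of the longest exon in any annotated transcript of the gene, coding or not. Whether a cluster lies in an exon, an intron or an untranslated region was not analysed here, and no cluster sequences are shown because an hg19 genome was not used here.

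The locus with the most members was that of AHNAK, which encodes a giant scaffold protein built of repeated units and is known for coding sequence that lies almost wholly in a single exon. Its 29 members formed 3 minus-strand groups of chromosome 11, between 62285661 and 62301366. The 3 groups together spanned 15706 bases, of which 53.8% lay inside clusters. The longest AHNAK exon in GENCODE 29 is 18170 bases, longer than the stretch from the first to the last of these members, and only 0.100% of protein-coding genes have an exon as long. The breaks between the groups were short: 1114 bases separated the first from the second and 1636 bases the second from the third, counted by position. No Alu cluster on that strand lay between the outer ends of the 3 groups, and the nearest one was 85078 bases away.

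The largest group of all held 14 AHNAK clusters, from 62285661 to 62291110. In the order of the transcript its first 8 clusters were nearly continuous and covered most of the first 2271 bases, with gaps of 4 to 120 bases. An open stretch of 634 bases followed, and then 3 clusters of 561, 180 and 110 bases parted by gaps of 5 and 18 bases. The last 3 clusters, of 157, 139 and 232 bases, stood apart at gaps of 348, 247 and 548 bases. The second AHNAK group had 9 clusters from 62292225 to 62297465 and was the more densely covered, at 74.0% of 5241 bases against 60.2% of 5450 bases. It contained the longest cluster in this set, of 1509 bases from 62294933 to 62296441. All of its other clusters were between 234 and 382 bases long. The third group, of 6 clusters from 62299102 to 62301366, was covered to 56.9%.

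**Figure D1:**
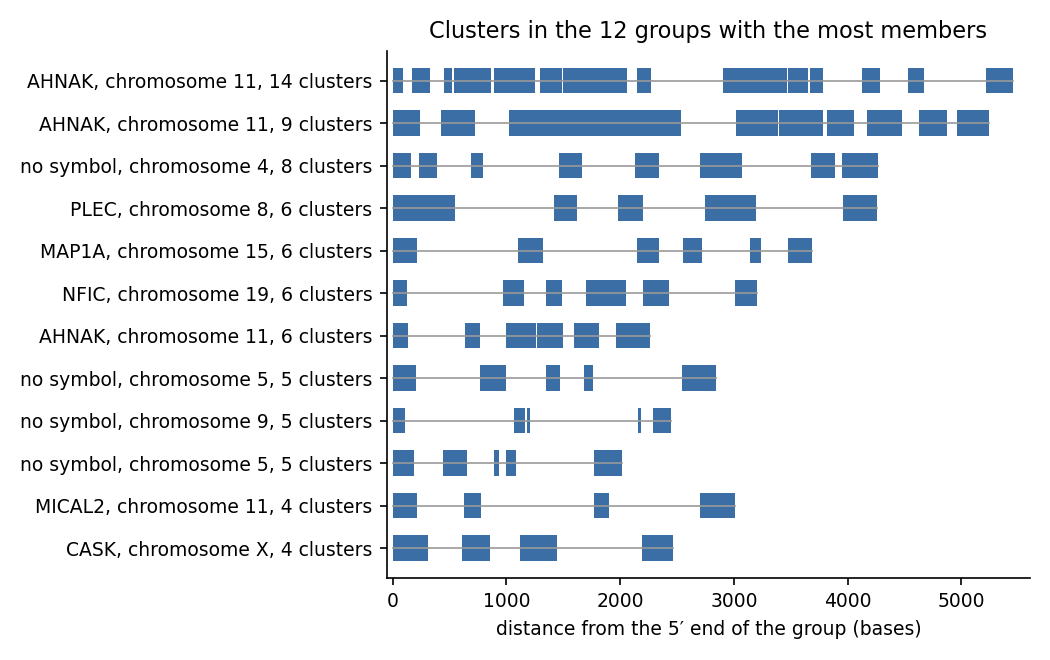
Each row is 1 of the 12 groups with the most members, drawn from its 5′ end in the direction of its strand, with distance in bases on the x axis; blue boxes are clusters and grey lines the span, and row labels give the gene symbol where one is used, the chromosome and the number of clusters. The 2 largest AHNAK groups span over 5000 bases with short gaps, while the groups of MAP1A and PLEC have wider gaps, with medians of 422 and 541 bases.

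PLEC, MAP1A and FLNC also held several groups each. PLEC encodes plectin, a very large linker between intermediate filaments and other parts of the cytoskeleton. It had 10 members in 3 minus-strand groups of chromosome 8, between 144989433 and 144999783, and 26.2% of that stretch lay in clusters. The central PLEC group, of 6 clusters, spanned 4258 bases with clusters of 202 to 448 bases. MAP1A, a microtubule-associated protein of neurons and glia, had 12 members in 3 groups on the plus strand of chromosome 15. Its first group, from 43813583 to 43817271, held 6 clusters of 97 to 215 bases and was covered to 29.7%. The next, from 43819272 to 43821374, held 4 clusters of 192 to 602 bases and was covered to 68.1%. Neighbouring stretches of 1 locus thus differed in how closely the clusters were packed. The longest exons of PLEC and MAP1A in GENCODE 29 are 7249 and 8185 bases, longer than any of their single groups but shorter than the stretches that join them, of 10351 and 10261 bases.

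FLNC, which encodes the actin crosslinker filamin C, showed a different layout. Its 4 groups on the plus strand of chromosome 7, between 128478299 and 128492854, were all pairs. These pairs spanned 630, 850, 1052 and 1345 bases, and clusters covered 10.6% of the whole stretch of 14556 bases. FLNC has no exon in GENCODE 29 longer than 939 bases, so the 2 longer FLNC pairs reach over more sequence than any single exon of the gene. AHNAK2, a relative of AHNAK with a similarly long exon (17898 bases in GENCODE 29), had 7 members in 3 groups on chromosome 14 (minus strand) from 105411120 to 105417329, covered to 22.9%. MACF1, a spectraplakin that links actin and microtubules, had a single pair, whose clusters of 244 and 855 bases covered 81.8% of 1344 bases.

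FN1, COL6A3, TGFBI and MMP2, whose products are matrix proteins or a matrix enzyme, had several groups each and were named after their positions were seen. FN1 encodes fibronectin, a matrix glycoprotein that glioblastoma cells deposit. It had 8 members in 3 groups on the minus strand of chromosome 2: 2 groups of 3, spanning 1492 and 2239 bases, and a pair spanning 1098 bases. Between the outer ends of these groups the list held 19 non-Alu clusters of that strand and 1 Alu cluster, so part of the non-Alu clusters had no neighbour within 1000 bases and were no members. COL6A3, a chain of collagen VI, had 3 pairs on the minus strand of chromosome 2, 1 of which, from 238285429 to 238285904, was covered to 95.4%. TGFBI, a secreted adhesion protein induced by TGF-beta, had 6 members in 2 groups on the plus strand of chromosome 5. MMP2, the gelatinase that degrades collagen IV, had 2 pairs on the plus strand of chromosome 16. FAT1, an atypical cadherin, had 3 clusters of 208, 268 and 629 bases on the minus strand of chromosome 4 that covered 85.7% of their span.

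Other single groups were given symbols of genes of several functions, named after their positions were seen. EEF1A1, the translation elongation factor that brings aminoacyl-tRNA to the ribosome, had 4 clusters on the minus strand of chromosome 6. They spanned 2059 bases, against a longest exon of 2185 bases in any annotated transcript. FOSL1, a subunit of the AP-1 transcription factor, had 3 clusters of 282, 274 and 253 bases parted by 28 and 39 bases, and its covered share of 92.4% was the highest among groups of 3 or more. CSF3, which encodes the cytokine G-CSF, had 3 clusters that covered 77.0% of 964 bases. STC1, the secreted hormone stanniocalcin 1, had 4 clusters of 176 to 596 bases covering 52.3% of 2424 bases. TGM2, a protein-crosslinking transglutaminase, had 4 covering 61.0% of 1490 bases. MGLL, which breaks down the endocannabinoid 2-arachidonoylglycerol, had 4 covering 62.4% of 1578 bases.

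The remaining named genes were of mixed kinds. NFIC, a transcription factor of the nuclear factor I family that acts in glial genes among others, had 6 clusters on the plus strand of chromosome 19 over 3205 bases. MICAL2, an enzyme that oxidises actin, had 4 clusters on the plus strand of chromosome 11 with a median gap of 801 bases, so these were spread thinly and covered 26.6% of 3007 bases. HEG1, a transmembrane protein of endothelial junctions, had 6 members in 2 groups: 4 covered 31.9% of 2366 bases, and a pair of clusters of 246 bases each covered 97.8% of 503 bases. CASK, a membrane scaffold of the MAGUK family, had 4 covering 46.8% of 2465 bases. HMGA2, a chromatin protein expressed in many tumours, had 5 members in 2 groups on the plus strand of chromosome 12, and TANC2, a synaptic scaffold, had 5 in 2 groups on chromosome 17. CPNE7, a copine that binds membranes in response to calcium, had 6 members in 2 groups on chromosome 16.

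Some of the largest groups have no symbol here. The third largest group, of 8 clusters, was found on chromosome 4, plus strand, from 189424408 to 189428670 and was covered to 40.2%, with clusters of 109 to 365 bases. On chromosome 5, 5 clusters lay on the plus strand from 21481929 to 21483945 and another 5 on the minus strand from 69783722 to 69786559. A minus-strand group of 5 on chromosome 9, from 140460497 to 140462944, was the most thinly covered of the groups of 4 or more, at 17.2%, and its clusters were only 24 to 158 bases long. The pair with the longest span, from 30234835 to 30236905, was a chromosome 16 group of the minus strand: its clusters of 944 and 1122 bases were parted by 5 bases and covered 99.8% of the span. Other symbol-free groups included 4 clusters from 144823845 to 144825824 on the plus strand of chromosome 1 and another 4 from 9847890 to 9848872 on the plus strand of chromosome 12. A group of 3 on chromosome 9, from 140002941 to 140003343, covered 89.6% of 403 bases, and a pair on chromosome 13, from 29880987 to 29881957, held a cluster of 692 bases.

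Exon and group sizes were set side by side for the named genes. The longest exon was at least as long as the longest group for 23 of the 26 symbols, the exceptions being FLNC, CPNE7 and POTEF. The share of all genes that would meet this was not counted. The median longest exon of 19907 protein-coding genes was 1755 bases, above the median group span of 922 bases. The longest exon exceeded 5000 bases for 10 of the 26 symbols and for 9.13% of protein-coding genes. The symbols were chosen after the positions were seen. They were given to groups that were large, highly covered or held a long cluster, or to loci with several groups. These counts therefore describe the named loci and do not extend to all 215 groups.

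Most groups were small. Pairs made up 156 of the 215 groups (72.6%) and held 312 of the 543 members (57.5%). There were 35 groups of 3 and 24 groups of 4 or more, which together held the other 231 members. Sizes above 6 occurred 3 times, at 8, 9 and 14 clusters. The groups were spread over 22 chromosomes, and 112 of them were plus-strand and 103 minus-strand groups.

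**Figure D2:**
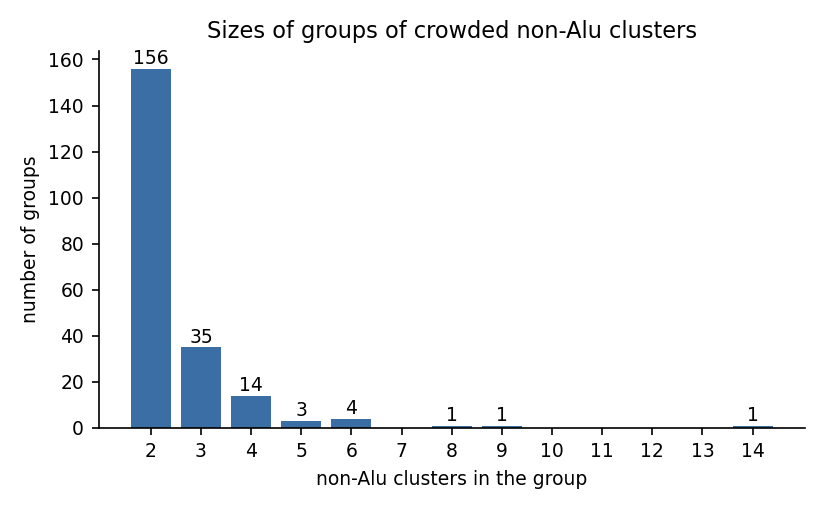
Bars show how many groups (y axis) held each number of non-Alu clusters (x axis), with the count above each bar. Groups of 2 dominate at 156, and the 3 groups above 6 clusters hold 8, 9 and 14.

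The share of non-Alu clusters that were crowded ranged from 0 to 24.7% over the chromosomes, with wide and mostly overlapping intervals. Chromosome X had 24 of 97 (24.7%, Wilson interval 17.2 to 34.2%), chromosome 5 had 42 of 174 (24.1%, 18.4 to 31.0%) and chromosome 11 had 42 of 175 (24.0%, 18.3 to 30.8%), while 15.2% was the value for the whole class. On chromosome 11, 29 of the 42 members were those of AHNAK. On chromosome 5 the largest group held only 5 clusters, so its 42 members were divided over 15 groups. Chromosome 19 had 16 of 169 (9.47%, 5.91 to 14.8%) and chromosome 18 had 2 of 37 (5.41%, 1.5 to 17.7%). None of the 39 non-Alu clusters on chromosome 21 was crowded (upper limit 8.97%), nor any of the 5 on chromosome Y. Among Alu clusters, 4.51% had an Alu neighbour by the same distance and strand, and 6.70% of all clusters had a neighbour of any class.

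Groups varied widely in how far they reached and how fully they were covered. The span from first to last base had a median of 922 bases (order-statistic 95% interval 829 to 986, n = 215 groups), and ran from 185 to 5450 bases. Over all groups the members covered 114114 of 231315 bases, or 49.3%. The median group was covered to 54.4% (48.1 to 58.4%), with a lowest value of 15% and a highest of 99.8%. Over 50% of the span was covered in 118 groups and over 80% in 37. The covered share of pairs had a median of 55.3%, of groups of 3 a median of 47.7%, and of groups of 4 or more a median of 54.6%, and the intervals of these medians overlapped. Larger groups were longer by construction, since each chained cluster extends the span. The median span was 2316 bases for 4 or more clusters against 764 for pairs, with no lower covered share that the intervals separate.

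**Figure D3:**
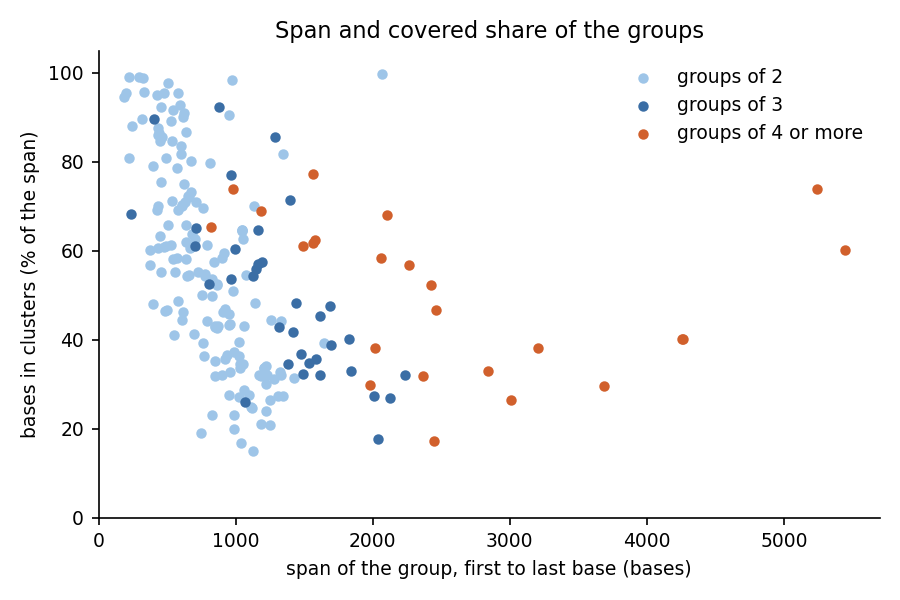
Each point is 1 of the 215 groups, placed by its span in bases (x axis) and the percent of the span that lies in clusters (y axis), coloured by the number of clusters. The AHNAK groups of 14 and 9 clusters stand at the far right, at 60.2% and 74.0%, and the pair covered to 99.8% stands alone near 2000 bases.

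Within groups the rule capped the gaps at 1000 bases, so a median below that is in part set by it. Over 328 gaps the median was 260.5 bases (228 to 325), and 96 gaps were over 500 bases. At the short end 130 gaps were at most 200 bases, 46 at most 50 and 12 at most 10, and the smallest was 2 bases. The number of consecutive pairs fell with distance across the threshold as well. There were 328 with a gap of up to 1000 bases, 120 with 1000 to 2000, and 57, 76 and 50 in the next steps of 1000 bases. The pairs nearest to the threshold on the inside had gaps of 1000, 997 and 994 bases, and those nearest outside had gaps of 1009, 1012 and 1021 bases. The gap of 1012 bases lay at the locus given the symbol AHNAK2 and split its groups, as the gap of 1114 bases did at that of AHNAK. The rule by which reads were joined into clusters sets the smallest possible gap and was not stated in the sources at hand.

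**Figure D4:**
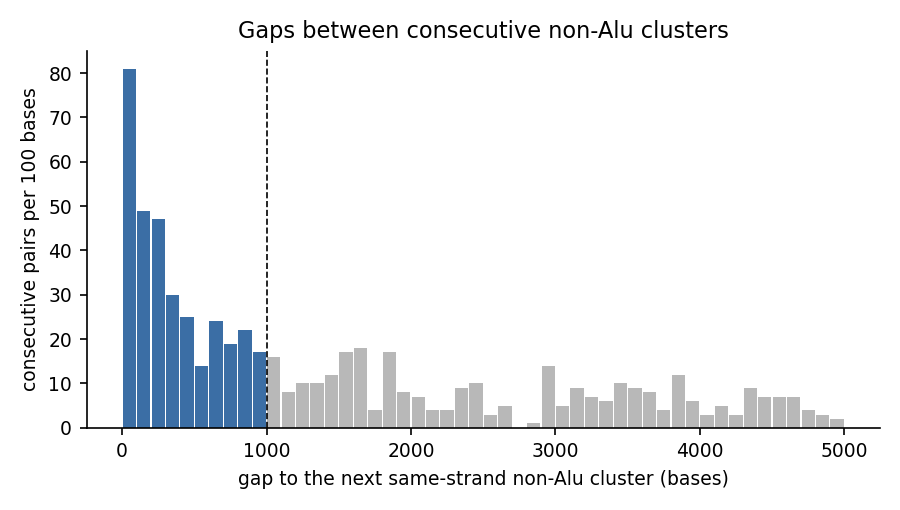
Bars count consecutive same-strand non-Alu clusters per 100 bases of gap (x axis, bases), blue up to the 1000-base threshold (dashed line) and grey beyond it. The counts decline from the shortest gaps across the threshold, with 120 pairs between 1000 and 2000 bases.

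The rule set no length, but it measured gaps from edge to edge, and the same edges give the lengths. A longer cluster thus reaches nearer to its neighbours, and the part of this in the lengths was not tested. Crowded clusters had a heavier tail of long ones. Their median length was 202 bases (194 to 209, n = 543), against 190 bases for solitary non-Alu clusters (188 to 192, n = 3039) and 193 for Alu clusters (192 to 193, n = 20200). With the group as the unit, the group median length had a median of 196 bases (188 to 203, n = 215 groups). That interval overlaps the one of solitary clusters, so a shift in typical length is not separated by group. Clusters over 400 bases made up 4.42% of the crowded set (24 of 543, Wilson interval 2.99 to 6.49%), 0.921% of solitary non-Alu clusters (28 of 3039, 0.638 to 1.33%) and 0.0842% of Alu clusters (17 of 20200), with 0.290% over the whole list. The 24 long members were spread over 22 groups. At 300 bases the shares were 11.8% (9.34 to 14.8%), 3.16% (2.59 to 3.84%) and 4.02% (3.76 to 4.30%). Short clusters were also more frequent among the crowded: 13.6% were under 100 bases (11.0 to 16.8%), against 8.52% of solitary ones (7.58 to 9.57%). Under 40 bases the shares were 1.1% (0.507 to 2.39%) and 0.823% (0.558 to 1.21%), with overlapping intervals. Intervals did not overlap at the cuts of over 400, over 300 and under 100 bases, but clusters of 1 group share a transcript and the intervals treat them as independent. Read number per cluster was not analysed here, so the part of transcript abundance in these lengths was not tested.

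**Figure D5:**
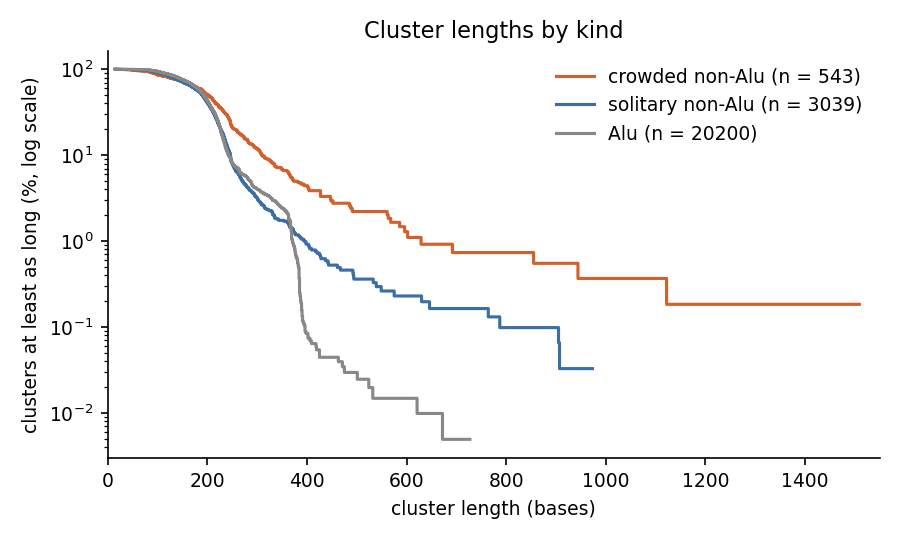
Curves give the percent of clusters (log scale) that are at least as long as the length on the x axis (bases), for crowded non-Alu, solitary non-Alu and Alu clusters. The crowded curve lies above the others beyond about 200 bases and ends at 1509 bases.

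Lengths were also compared by position within a group. The 3′-most cluster had a median of 206 bases (194 to 218), the 5′-most 195 bases (188 to 208), and the inner members 204 bases (183 to 225, n = 113), with overlapping intervals. The 3′-most cluster was the longer of the outer ones in 119 groups, the 5′-most in 93, and both were equal in 3. Members of groups of 4 or more had a median of 211 bases (196 to 233), those of pairs 196 bases (190 to 208).

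Few non-Alu clusters, crowded or solitary, lay right beside bound Alu elements, which the rule did not use. None of the 215 groups had an Alu cluster of its strand inside its span (upper Wilson limit 1.76%). The rule left little room for one: 130 of 328 gaps were at most 200 bases, and the median Alu cluster was 193 bases long. The share for other stretches of like size was not counted, so this 0 is not a trait of the groups. An Alu cluster on the same strand lay within 1000 bases of 7 members (1.29%, 0.626 to 2.64%), against 2.24% of solitary clusters (1.77 to 2.83%) and 2.09% of all non-Alu clusters, with intervals that overlap. Within 10000 bases the shares were 14.7% (12 to 18.0%) for members and 20.3% (18.9 to 21.7%) for solitary clusters, beside 19.4% over the class. Within 50000 bases they were 46.2% (42.1 to 50.4%) and 55.6% (53.8 to 57.4%), beside 54.2%. Members of 1 group lie close together and share much of this distance, so the intervals of members are too narrow. Counted by group, 33 of 215 had one within 10000 bases of a member (15.3%, 11.1 to 20.8%). Within 50000 bases 103 of 215 groups had one (47.9%, 41.3 to 54.6%). At both distances the interval of groups overlaps that of solitary clusters. The median distance to the nearest same-strand Alu cluster was 57153 bases for members (48636 to 62727) and 40436 bases for solitary clusters (37997 to 43206). The interval of members again treats those of 1 group as independent. On the opposite strand, 1 member had an Alu cluster within 1000 bases, and none had a non-Alu cluster within that distance (upper limit 0.702%), against 8 solitary clusters (0.263%).

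Groups themselves came together at a minority of loci. When groups of 1 strand within 20000 bases of each other were joined, a distance chosen after the data were seen, the 215 groups fell into 190 loci. Of these, 172 held a single group with 410 members in all, and 18 held 2 to 4 groups with 133 members. The loci with 3 or more groups were those of FLNC, AHNAK, MAP1A, PLEC and AHNAK2 and a stretch of chromosome 5 from 69783722 to 69807844, on the minus strand, with 10 members. In each of these 6 loci the Alu clusters of the same strand between the outer ends numbered 0. Of the 3 groups of FN1 and of COL6A3, 2 each were joined, across gaps of 15674 and 15619 bases. The third group of each gene lay too far away for this joining. The HMGA2 locus had 2 Alu clusters between the ends of its groups.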

How the data were processed

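CLIP-seq clusters came from U87MG cells, with 2 libraries (AB1 and AB2). The authors deposited 1 list without a header. Its measured columns are the start and end of each cluster, in bases, beside its class (Alu or non-Alu), chromosome and strand. Per the submitters' processing notes, cutadapt 1.1, Novoalign 2.08.22 and the hg19 build were used. How clusters were called, at which thresholds, how reads with several matches were placed and how libraries were pooled is not given in the sources at hand. They can change which copies of a repeated sequence are listed, and the lengths and gaps of clusters. Starts were read as counted from 0 and are printed counting from 1, so they may be off by 1 base.

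The neighbour rule, chaining and all counts were computed in pandas 2.3.3 and numpy 2.4.6 under Python 3.11.15; intervals used scipy 1.17.1. On simulated clusters, planted by the same distance rule on a single strand, all 200 planted groups were found, which checks the code only. The groups described in full were to be the 15 with the most clusters (24 with ties), the 5 longest, the 5 with the highest covered share among groups of 3 or more, and those of the 5 longest clusters, 31 groups in all. Loci with several groups and all gene symbols were added after positions were seen. That rule had kept gene names for an hg19 table, and the symbols given are general knowledge. Members and lists were chosen with earlier results of these data known. The planned gene lists, gene features, base composition, folding energy and sequence matches were not analysed here, because no hg19 genome or annotation was used.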

Additional observations from a re-analysis of the deposited data

How the results depend on the processing

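Of 63 alternative values, 25 stayed within 1.5 times the reported count or inside the 95% interval of the share or median, and 38 moved, among them the recurring layouts described under the other observations. Most moved values follow the neighbour distance by construction. The covered share of the summed spans was judged by an interval that treats single bases as independent and is very narrow. All of its alternatives therefore counted as moved, even 48.9 and 49.1% against 49.3%. At 200, 500, 2000 and 5000 bases, the crowded share was 6.48, 11.2, 20.4 and 27.8%, the largest group 8, 9, 29 and 29 clusters, the median gap 76.5, 178, 485 and 935 bases, and the covered share of the summed spans 81.6, 66.3, 33.3 and 17.7%. At 200 and 5000 bases there were 232 and 997 members in 102 and 366 groups, and at 200 bases the median member length was 209.5 bases. Merging clusters within 50 bases gave a crowded share of 13.5%, a largest group of 8, a median gap of 340 bases, a covered share of 47.4% and 6.51% of members over 400 bases. Dropping clusters shorter than the median of 191 bases left 214 members in 88 groups, a crowded share of 11.9%, a largest group of 9 and a covered share of 60.5%. Neighbours of either class gave a crowded share of 17.1%, a median gap of 332 bases and a covered share of 46.6%. With strand ignored the covered share was 48.9%. Without the group of 14 it was 49.1%, and the largest group left had 9 clusters. No paired analysis was possible because the list joins both libraries in 1 set of positions, and no library could be left out. With no read numbers, weak clusters and places without a cluster cannot be judged. Alternatives that need an hg19 genome or annotation were not run.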

Other observations

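Some groups recurred elsewhere with the same layout. Among 328 pairs of consecutive members, read in the direction of their strand, 2 matches had both cluster lengths and the start-to-start distance equal within 2 bases. On the plus strand of chromosome X, clusters of 235 and 171 bases with starts 1036 bases apart occurred from 56797312 to 56798518 and again from 56802714 to 56803920. On chromosome 1, clusters of 250 and 427 bases with starts 621 bases apart occurred on the minus strand from 146033242 to 146034289 and on the plus strand from 148594517 to 148595564. Another chromosome 1 pair, on the minus strand from 147575023 to 147576066, had lengths of 246 and 427 bases and starts 617 bases apart, so it missed the tolerance by 2 bases. With a tolerance of 5 bases there were 5 matches among 7 groups. The search and both tolerances were chosen after the data were seen.

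The group of POTEF, a member of a primate gene family with ankyrin repeats and an actin-like part, resembled a group without a symbol on chromosome 14. Both had 4 clusters on the minus strand, with spans of 1563 bases (chromosome 2, 130831192 to 130832754) and 1564 bases (chromosome 14, 19987086 to 19988649). In both the second cluster began 460 bases from the 5′ end. The other boundaries differed, and clusters covered 77.4% of the first and 61.8% of the second. HNRNPA1L2, an intronless relative of the splicing factor gene HNRNPA1, had 4 clusters covering 69.0% of 1187 bases on chromosome 13. Sequences were not compared here, and how reads that match several places were assigned is not given, so the copy from which reads of such gene families came was not tested.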
